A study of Mus musculus with 10 samples.

Results

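The guidance genes of the semaphorin, ephrin, Slit and netrin systems were followed in RNA of the dissected intermediate lobe (IL) of the mouse pituitary. Every row of the deposited table whose gene symbol is that of a semaphorin, plexin, neuropilin, ephrin, Eph receptor, Slit, Robo, netrin, UNC5 receptor or Dcc was taken, whatever its values, which gave 68 of 29527 genes. Of these, 59 reached the minimum level for testing (a mean of 3.32 on the log2 scale, or 10 on the linear scale), among 17268 genes of the whole table. The samples were 4 wild-type (WT) ILs, 3 p27-/- ILs, which carry 2 null copies of Cdkn1b (the gene of the cell cycle inhibitor P27) in all cells, and 3 p27-/-;Sox2+/- ILs, which in addition lack 1 copy of the stem cell factor gene Sox2 and are also called the compound mutant. The labels give an age of 2 to 3 months for all mice, which were of both sexes and of mixed background, and do not name the Sox2 allele. The question the 3 genotypes address is what loss of P27 does to the IL, where P27-deficient mice develop tumors, and how this depends on the dose of Sox2. Values are normalized log2 values as deposited, 1 per gene and sample, and differences are on that scale.

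These families carry short-range and long-range signals between cells and were first known for steering axons. Semaphorins signal through plexins, the secreted ones with neuropilins as co-receptors, and neuropilins are also co-receptors for vascular endothelial growth factors. Ephrins are bound to the membrane and are read by Eph receptor tyrosine kinases on the adjoining cell, Slit proteins are secreted ligands of Robo receptors, and netrins act through DCC and the UNC5 receptors. In endocrine and vascular tissue the same molecules take part in cell adhesion, cell sorting and vessel growth. The IL is made mainly of melanotrophs, with stem cells and nerve endings, and lies against the posterior lobe. The authors describe the mouse IL as avascular and report ectopic vessels in juvenile p27-/- ILs.

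Cdkn1b had log2 values of 8.54, 8.85, 8.39 and 8.66 in the WT samples, 8.27, 8.04 and 8.22 in p27-/- and 8.10, 7.73 and 7.83 in p27-/-;Sox2+/-, lower in every mutant sample than in any WT sample. Sox2 ranged from 6.88 to 7.07 in the samples with 1 copy of the gene and from 7.08 to 7.75 in the others. The mean log2 value of 6 melanotroph markers ranged from 13.23 to 13.61 in WT, from 13.53 to 13.80 in p27-/- and from 13.40 to 13.53 in p27-/-;Sox2+/-, and 2 of the 6 passed as higher in p27-/- than in WT. That of 7 posterior lobe markers was 5.31 in WT replicate 2 and between 6.61 and 6.87 in the other WT samples. It ranged from 5.57 to 5.92 in p27-/-, and was 5.28, 5.22 and 6.56 in p27-/-;Sox2+/-. That of 9 endothelial markers ranged from 5.60 to 6.05 in WT, from 5.31 to 5.62 in p27-/- and from 5.38 to 5.79 in p27-/-;Sox2+/-. That of 6 pituitary stem cell markers, Sox2 among them, ranged from 7.24 to 7.31 in WT, from 6.84 to 7.04 in p27-/- and from 6.93 to 7.22 in p27-/-;Sox2+/-. Both mutants lay below WT, and 1 of the 6, Cdh1, passed as lower in p27-/-. Since p27-/-;Sox2+/- lacks 1 copy of Sox2, its lower mean follows in part from the genotype itself. Of the others, Sox9 (8.39 against 8.47 in WT), Cdh1 (7.77 against 8.10), Aqp4 (8.19 against 8.52) and S100b (4.84 against 4.91) had lower means in p27-/-;Sox2+/-. Cdh26 had a higher mean there (6.21 against 6.15). That of 7 fibroblast and mural markers ranged from 8.15 to 8.59 in WT, from 7.56 to 8.26 in p27-/- and from 7.64 to 8.28 in p27-/-;Sox2+/-, and 2 of the 7 passed as lower in p27-/-. That of 7 anterior lobe markers was 9.92 in WT replicate 2, from 7.95 to 8.37 in the other WT samples and from 7.45 to 8.84 in the mutants. No marker was at 0, the lowest single value being 3.12, for Rax. The mean of 4 proliferation markers ranged from 5.37 to 5.95 in WT, from 6.84 to 7.38 in p27-/- and from 6.06 to 6.57 in p27-/-;Sox2+/-.

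All 9 families were read in the WT IL. Levels of different genes were compared per kb of the longest protein-coding transcript. On that scale the highest was Dcc, a netrin receptor, at a mean WT log2 value per kb of 8.04 ± 0.32 (SD, n = 4), followed by Plxnb1, a semaphorin receptor, at 7.78 ± 0.18, and the netrin receptor Unc5a at 7.64 ± 0.09. The WT samples of these genes overlapped, so that their order is not settled by the spread between samples. Sema3e, a secreted semaphorin, was the highest ligand at 7.32 ± 0.08. It was followed by Sema3a at 7.12 ± 0.22 and Slit1 at 6.90 ± 0.07, each overlapping its neighbour in the order. The highest ephrin in WT was Efnb2, at 6.44 ± 0.16, the highest Robo receptor was Robo1, at 6.09 ± 0.16, and the highest Eph receptor was Ephb2, at 5.56. The neuropilin gene Nrp2 rose in this measure from 5.93 ± 0.16 in WT to 6.5 ± 0.11 in p27-/- and 6.91 ± 0.11 in p27-/-;Sox2+/-. Of the highest members, Dcc, Plxnb1, Sema3e, Slit1, Ephb2, Efna5 and Ntn1 did not pass the test in any comparison of genotypes, with differences from WT between -0.18 and 0.21. By mean per kb over the 10 samples, Efna5 was the highest ephrin, at 6.12 against 6.09 for Efnb2, and Ntn1 the highest netrin. Sema3g, Plxnb3, Epha2, Epha6, Epha8, Epha10, Efna3, Robo3 and Ntn5 lay below the minimum, Epha10 by less than 0.01 on the log2 scale, and Ntn3 was not analysed here.

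**Figure D1:**
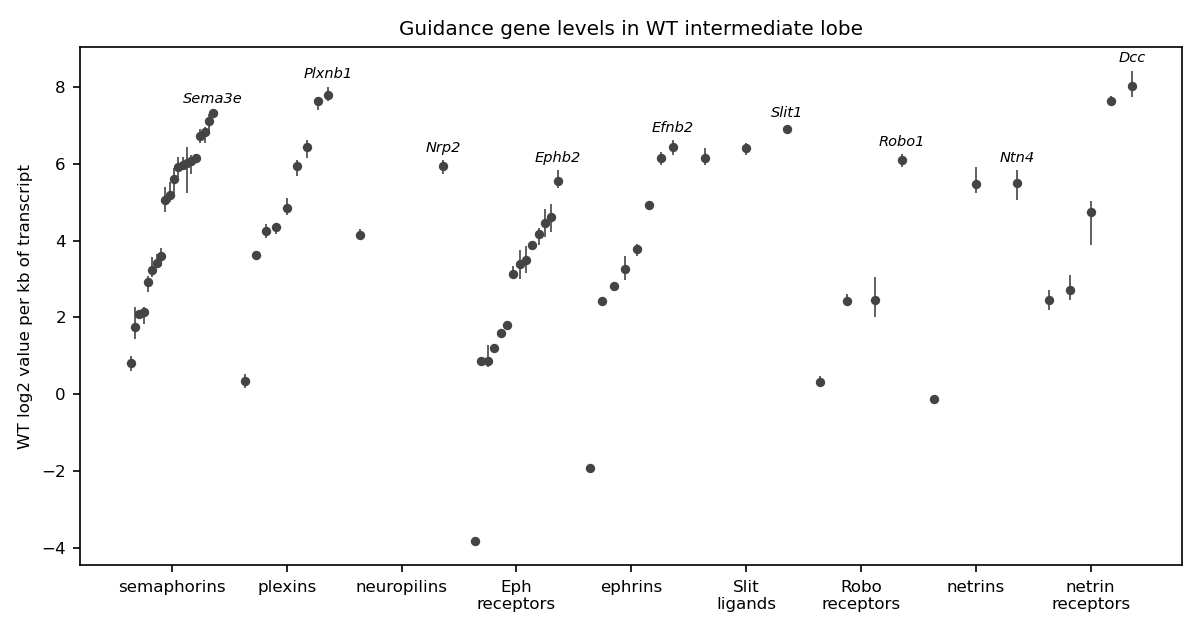
Mean log2 value per kb of transcript in the 4 WT samples for each of the 68 guidance genes, by family, with lines from the lowest to the highest sample and the highest WT member of each family named. Levels ran from the netrin receptor Dcc at 8.04 down to genes under 0, and most families had members spread over several log2 units.

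In p27-/- compared with WT samples, the change among guidance genes was mostly downward. Nrp2 rose, and 9 genes fell: the ligands Sema6d, Efnb2, Efna1 and Slit2 and the receptors Plxna2, Plxnb2, Robo1, Robo4 and Unc5c. These 10 of 59 genes (16.9%) passed an adjusted p of 0.05 (limma, Benjamini-Hochberg over all tested genes), against 7.78% of all tested genes. Those with a fall were 9 of 59, against 4.62% of all tested genes. The median log2 difference was -0.10 over the 59 genes and 0.01 over all tested genes. At an unadjusted p under 0.05, 19 of 59 (32.2%) differed, against 24.1% of all tested genes. Receptors and ligands were both represented, with 6 of 28 receptors and 4 of 31 ligands past the threshold. By family, 1 of 19 semaphorins, 2 of 8 plexins, 1 of 2 neuropilins, 0 of 10 Eph receptors, 2 of 7 ephrins, 1 of 3 Slit genes, 2 of 3 Robo genes, 0 of 2 netrins and 1 of 5 netrin receptors passed. In whole-tissue RNA, fewer cells of a type and less RNA per cell cannot be told apart.

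In p27-/-;Sox2+/- compared with WT samples, Nrp2 and Sema5a rose and Robo1, Robo4 and Efnb2 fell. These 5 of 59 genes (8.47%) passed the threshold in limma, against 2.71% of all tested genes, and the median log2 difference was -0.06. At an unadjusted p under 0.05, 18 of 59 (30.5%) differed, against 17.8% of all tested genes. Nrp2, Robo1, Robo4 and Efnb2 therefore passed in both mutants, in the same direction. Both comparisons use the same 4 WT samples, so that the second is no independent repeat of the first. Between p27-/-;Sox2+/- and p27-/-, 0 of 59 guidance genes passed in limma, against 0.145% of all tested genes. At an unadjusted p under 0.05, 8 of 59 (13.6%) differed, against 6.65% of all tested genes, and all 8 had the higher value in p27-/-;Sox2+/-: Sema6d, Nrp2, Sema5a, Sema4f, Plxna4, Epha3, Epha4 and Ephb1. In that direction 3.46% of all tested genes had such a p. The samples of these mutants did not overlap in 12 of 59 guidance genes (20.3%), with p27-/-;Sox2+/- higher in each, against 7.51% of all tested genes in that direction. The median log2 difference between the mutants was 0.10 over the guidance genes.

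**Figure D2:**
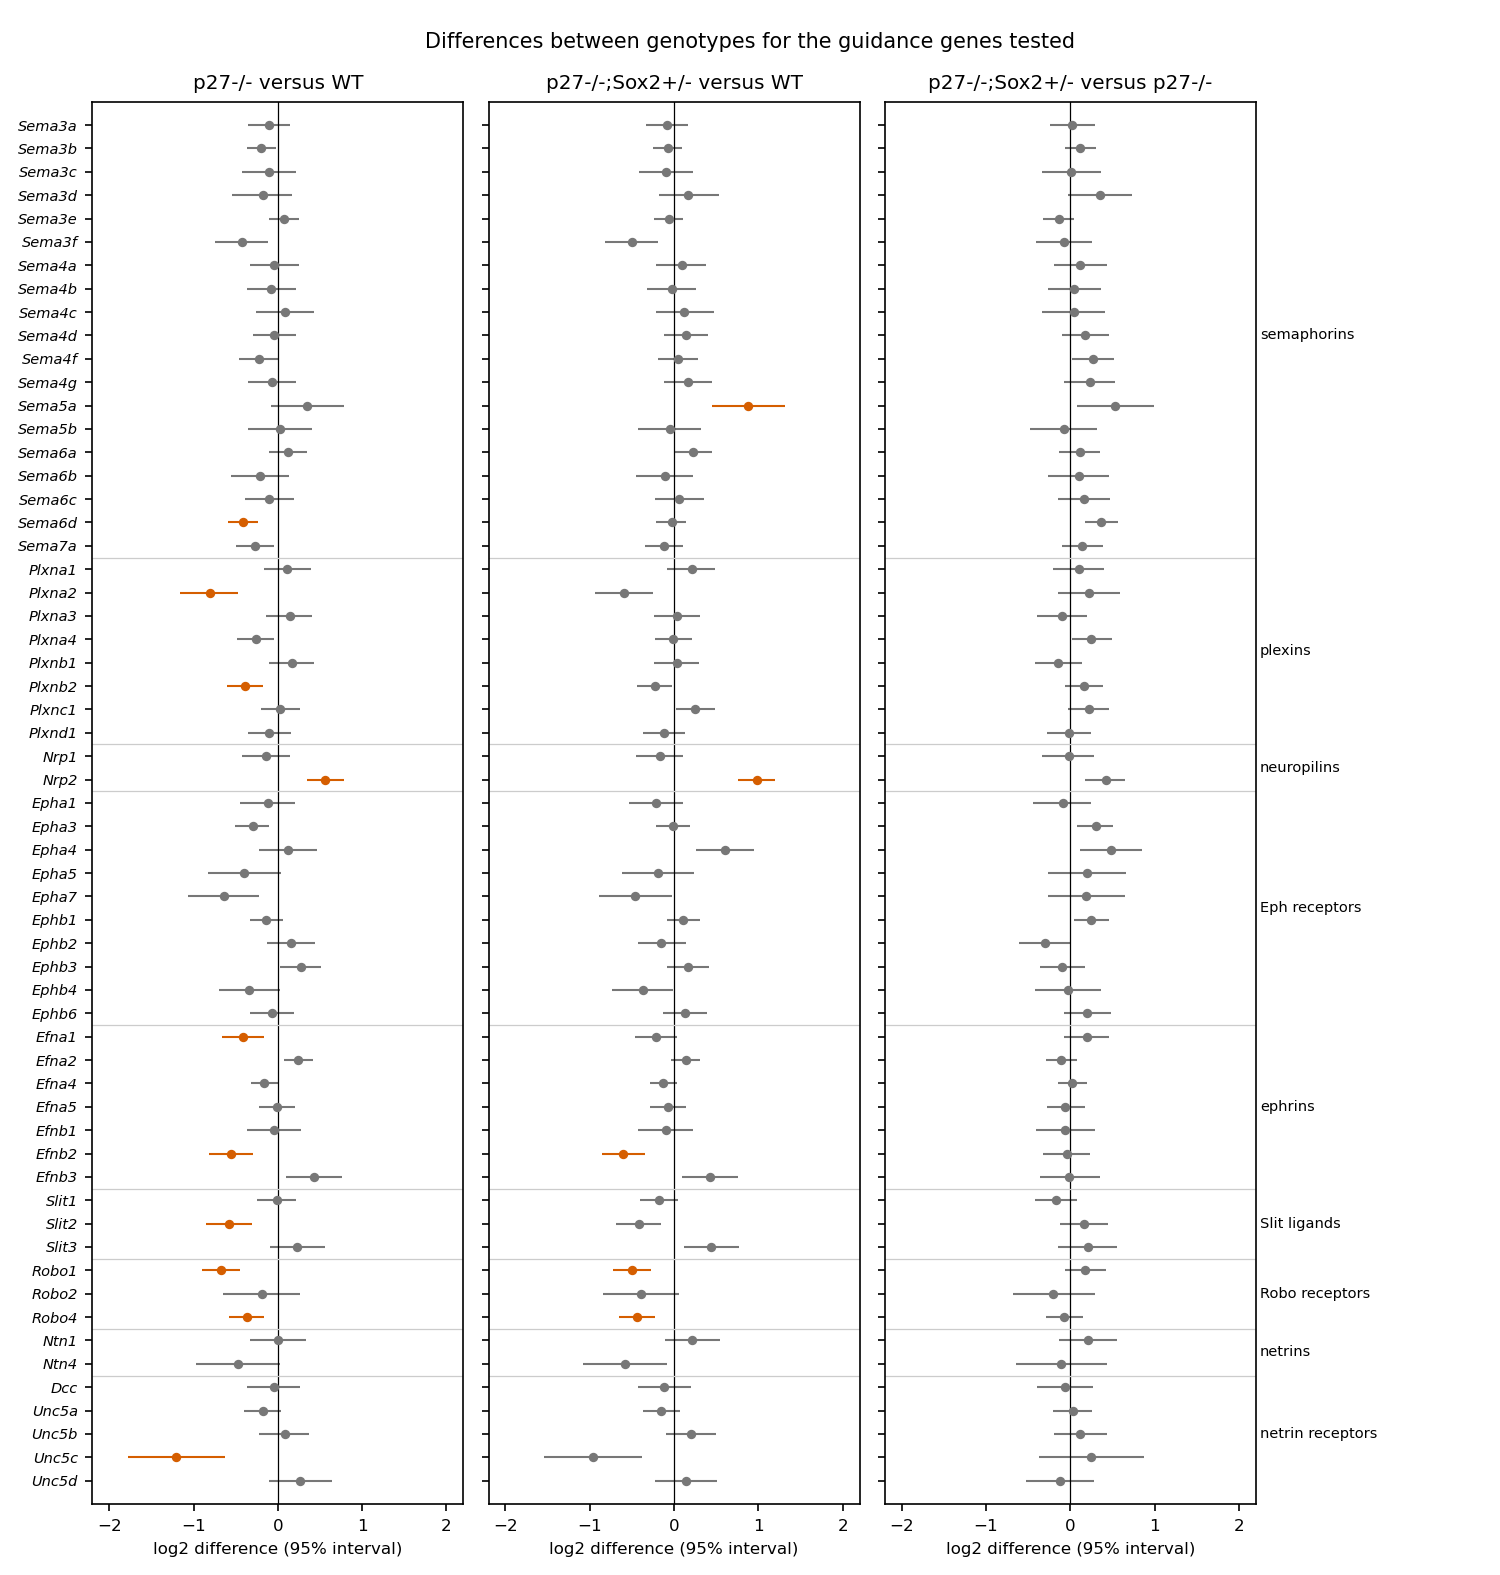
Log2 difference between genotypes with its 95% interval from limma for the 59 guidance genes tested, by family, in the 3 comparisons; coloured points passed an adjusted p of 0.05. Coloured points lie mostly left of 0 in p27-/- versus WT, 5 are coloured in p27-/-;Sox2+/- versus WT, 4 of them on the same side of 0 as in p27-/- and Sema5a in p27-/-;Sox2+/- versus WT only, and none is coloured between the mutants.

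The sequences before the start sites of the 4 genes that passed in both mutants are shown because these genes moved in both, Nrp2 upward and the others downward. Each runs over the 250 bases before a RefSeq start site on GRCm38.p6, 5′ to 3′ on the gene's strand, at chr1:62703067-62703316 (plus strand) for Nrp2, chr16:72662899-72663148 (plus) for Robo1, chr9:37401722-37401971 (plus) for Robo4 and chr8:8661243-8661492 (minus) for Efnb2. Capitals mark GGGCGG, the letters of a GC box, on either strand.
Nrp2: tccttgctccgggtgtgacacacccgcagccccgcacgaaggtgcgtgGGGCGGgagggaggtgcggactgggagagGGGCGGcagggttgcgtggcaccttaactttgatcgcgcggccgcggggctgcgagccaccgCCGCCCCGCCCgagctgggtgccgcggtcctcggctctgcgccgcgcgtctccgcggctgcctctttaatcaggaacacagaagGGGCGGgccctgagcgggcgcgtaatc
Robo1: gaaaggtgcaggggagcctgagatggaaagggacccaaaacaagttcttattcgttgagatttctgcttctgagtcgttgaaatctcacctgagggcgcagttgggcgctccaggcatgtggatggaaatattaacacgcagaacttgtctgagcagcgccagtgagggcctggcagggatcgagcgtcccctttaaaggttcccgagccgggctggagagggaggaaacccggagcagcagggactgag
Robo4: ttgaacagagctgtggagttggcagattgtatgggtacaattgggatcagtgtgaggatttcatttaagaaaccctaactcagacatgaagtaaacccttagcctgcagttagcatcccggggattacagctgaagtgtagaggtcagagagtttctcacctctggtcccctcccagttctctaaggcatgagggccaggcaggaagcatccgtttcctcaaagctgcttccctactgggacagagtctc
Efnb2: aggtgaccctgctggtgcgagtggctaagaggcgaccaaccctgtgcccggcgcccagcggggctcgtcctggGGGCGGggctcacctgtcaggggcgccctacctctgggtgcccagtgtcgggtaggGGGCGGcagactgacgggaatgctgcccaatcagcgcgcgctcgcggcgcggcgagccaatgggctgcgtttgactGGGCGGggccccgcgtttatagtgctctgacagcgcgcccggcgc
The Nrp2 window held 5 matches to GGGCGG, of which 2 overlap in the run CCGCCCCGCCC, and the Efnb2 window held 3, with a GC content of 72.4% and 72%. The Robo1 and Robo4 windows held 0 matches, with 56.0% and 49.6% GC. GGGCGG was present in 32.7% of the 32851 RefSeq windows of this length, and in 52 of the 74 windows (70.3%) found for 58 of the guidance genes. AACAAT and AACAAAG, letters that SOX factors are known to bind, were searched on both strands too. Neither was present in the 4 windows, and over all windows their shares were 9.42% and 5.03%. The Robo1 start site used lies 635631 bases inside the gene, which has more than 1 start site.

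Among the semaphorin receptors, Nrp2, on chromosome 1 from 62703317 to 62818692 (GRCm38), had log2 values of 8.77, 8.48, 8.83 and 8.64 in WT, 9.12, 9.29 and 9.32 in p27-/- and 9.75, 9.69 and 9.54 in p27-/-;Sox2+/-. The 3 genotypes did not overlap, with WT lowest and p27-/-;Sox2+/- highest. The log2 difference from WT was 0.56 in p27-/- (SE 0.10, adjusted p = 0.00616 in limma), a 1.48-fold level, and 0.98 in p27-/-;Sox2+/- (SE 0.10, adjusted p = 0.000484), a 1.97-fold level. The difference between the mutants was 0.42 (95% interval 0.18 to 0.65), with an unadjusted p of 0.00187 and an adjusted p of 0.242. Both differences from WT passed in every fit that left out 1 sample. Nrp1, the other neuropilin gene, did not pass in either mutant, at -0.14 and -0.17 (adjusted p = 0.544 and 0.541).

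Plxna2, a plexin that binds semaphorins with or without neuropilins, had values of 7.79, 7.62, 7.92 and 7.92 in WT, 7.43, 6.94 and 6.62 in p27-/- and 7.37, 7.08 and 7.2 in p27-/-;Sox2+/-. All mutant samples were below all WT samples, and the p27-/- samples were the most spread. It fell by 0.81 on the log2 scale in p27-/- (SE 0.16, adjusted p = 0.00984 in limma), and the difference in p27-/-;Sox2+/- was -0.59 (adjusted p = 0.0684). Without p27-/- replicate 3, the sample with the lowest value, the difference in p27-/- was -0.62 (adjusted p = 0.0569), while the difference in p27-/-;Sox2+/- passed without p27-/- replicate 1 (adjusted p = 0.0309) or replicate 3 (adjusted p = 0.0443). Plxnb2, a receptor of some transmembrane semaphorins, had values of 10.45, 10.09, 10.42 and 10.34 in WT, 9.84, 10 and 9.96 in p27-/- and 10.21, 10.05 and 10.02 in p27-/-;Sox2+/-. Its p27-/- samples lay below all WT samples, and the p27-/-;Sox2+/- samples overlapped WT. It fell by 0.39 on the log2 scale in p27-/- (adjusted p = 0.0305) and passed in 5 of the 10 fits that each left out 1 sample, with an adjusted p of at most 0.122, reached without p27-/- replicate 1.

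Among the semaphorins, the membrane-bound ligand genes Sema6d and Sema5a passed in 1 mutant each, and neither passed between the mutants. Sema6d had values of 8.84, 8.91, 8.79 and 8.81 in WT, 8.40, 8.41 and 8.48 in p27-/- and 8.89, 8.71 and 8.81 in p27-/-;Sox2+/-. The p27-/- samples lay below all others, and the p27-/-;Sox2+/- samples lay among WT. Sema6d fell by 0.41 on the log2 scale in p27-/- (SE 0.08, adjusted p = 0.0116 in limma), or 1.33-fold, and its difference from WT in p27-/-;Sox2+/- was -0.03 (95% interval -0.21 to 0.14, adjusted p = 0.872). The difference between the mutants, 0.37, had the smallest unadjusted p of the guidance genes in that comparison (0.000949) and an adjusted p of 0.19. Without p27-/- replicate 2 the adjusted p against WT was 0.0501. Sema5a had values of 8.68, 9.54, 9.88 and 9.67 in WT, 9.79, 9.73 and 9.85 in p27-/- and 10.32, 10.31 and 10.35 in p27-/-;Sox2+/-. All p27-/-;Sox2+/- samples were above all others, and p27-/- overlapped WT, where replicate 1 was the lowest. It rose by 0.88 in p27-/-;Sox2+/- (SE 0.20, adjusted p = 0.0323), a 1.84-fold level, while p27-/- differed from WT by 0.35 (adjusted p = 0.31). Without WT replicate 1 the rise was 0.63 (adjusted p = 0.00399), and the difference from p27-/-, 0.53 in both fits, had an adjusted p of 0.0322 in place of 0.633. The rise passed in 6 of the 10 fits that left out 1 sample, with an adjusted p of 0.0975, 0.124 and 0.0947 without p27-/-;Sox2+/- replicates 1, 2 and 3 and of 0.0508 without WT replicate 4.

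Of the ephrins, Efnb2, a membrane-bound ligand of EphB receptors and a marker of arterial endothelium, had values of 8.35, 8.62, 8.74 and 8.50 in WT, 8.21, 7.97 and 7.81 in p27-/- and 8.09, 7.88 and 7.89 in p27-/-;Sox2+/-. All mutant samples were below all WT samples, and the mutants overlapped. It fell by 0.56 on the log2 scale in p27-/- (SE 0.12, adjusted p = 0.0152 in limma) and by 0.60 in the compound mutant (SE 0.12, adjusted p = 0.0199), 1.47-fold and 1.52-fold. The difference between the mutants was -0.04 (95% interval -0.32 to 0.23). The fall in p27-/- had an adjusted p of 0.0583 without p27-/- replicate 2 and 0.0893 without p27-/- replicate 3, and that in p27-/-;Sox2+/- had 0.108 and 0.0708 without its replicates 2 and 3. Efna1, a ligand of EphA receptors, had values of 5.70, 5.58, 5.52 and 5.74 in WT, 5.07, 5.22 and 5.38 in p27-/- and 5.42, 5.35 and 5.50 in p27-/-;Sox2+/-. Its mutant samples were also all below WT. The fall of 0.41 on the log2 scale in p27-/- (adjusted p = 0.0419) passed in 2 of the 10 fits that left out 1 sample, with an adjusted p up to 0.17, and the difference in p27-/-;Sox2+/- was -0.22 (adjusted p = 0.34).

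No Eph receptor passed in limma. Of the 10 tested, 3 (30%) had an unadjusted p under 0.05 in p27-/- against WT, where 24.1% of all tested genes did: Epha3 at -0.30 (adjusted p = 0.0633), and Epha7 at -0.64 (adjusted p = 0.065) and Ephb3 at 0.27 (adjusted p = 0.171), the last 2 of which are named after their values were seen. Epha4, also named after its values were seen, had values of 6.97, 6.75, 7.47 and 7.32 in WT, 7.39, 7.27 and 7.10 in p27-/- and 7.61, 7.68 and 7.91 in p27-/-;Sox2+/-. Its p27-/-;Sox2+/- samples lay above all others, at a log2 difference from WT of 0.60 (adjusted p = 0.0621).

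Of 3 Slit and 3 Robo genes tested, Slit2, Robo1 and Robo4 fell in p27-/-. Slit2, a secreted ligand, had values of 9.23, 9.56, 9.49 and 9.36 in WT, 9.14, 8.67 and 8.68 in p27-/- and 9.0, 8.85 and 9.13 in p27-/-;Sox2+/-. All mutant samples were below all WT samples. It fell by 0.58 on the log2 scale in p27-/- (SE 0.13, adjusted p = 0.0147 in limma), or 1.5-fold, and the difference in p27-/-;Sox2+/- was -0.42 (adjusted p = 0.0948). Without p27-/- replicate 2 or 3 the adjusted p in p27-/- was 0.0736 or 0.0845. The other Slit genes did not pass, Slit1 at -0.01 and Slit3 at 0.23 in p27-/- against WT (adjusted p = 0.956 and 0.376).

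Robo1, a receptor of Slit proteins, had values of 9.17, 8.90, 9.11 and 8.84 in WT, 8.44, 8.23 and 8.31 in p27-/- and 8.50, 8.43 and 8.60 in p27-/-;Sox2+/-. Every mutant sample was below every WT sample. It fell by 0.68 on the log2 scale in p27-/- (SE 0.10, adjusted p = 0.00251 in limma) and by 0.50 in p27-/-;Sox2+/- (SE 0.10, adjusted p = 0.0231), 1.60-fold and 1.41-fold, with a difference between the mutants of 0.18 (95% interval -0.06 to 0.42). The fall in p27-/- passed in all 10 fits that left out 1 sample. That in p27-/-;Sox2+/- passed in 8, with an adjusted p of 0.0787 without its replicate 1 and 0.13 without its replicate 2. Robo4, a Robo known mainly from endothelium, was much lower in level, with values of 4.58, 4.29, 4.28 and 4.35 in WT, 3.99, 3.90 and 4.12 in p27-/- and 3.89, 3.96 and 3.95 in p27-/-;Sox2+/-. Both mutants lay below WT without overlap. It fell by 0.37 on the log2 scale in p27-/- (adjusted p = 0.0362) and by 0.44 in the compound mutant (adjusted p = 0.0284), and these passed in 4 and 6 of the 10 fits that left out 1 sample. Their adjusted p without 1 sample was at most 0.143, without p27-/- replicate 2, and at most 0.112, without p27-/-;Sox2+/- replicate 2. The endothelial markers Kdr and Flt1, receptors of vascular endothelial growth factor, fell as well, by 0.83 and 0.75 in p27-/- (adjusted p = 0.00966 and 0.029). They fell also in the compound mutant, by 0.67 and 0.80 (adjusted p = 0.0459 and 0.0379 in limma), as 2 of 9 endothelial markers in each mutant. Every endothelial marker had a lower mean in p27-/- than in WT. In the compound mutant every one but Cdh5 did, at 6.68 against 6.58 in WT. By staining for CD31, the authors saw ectopic vessels in juvenile p27-/- ILs. Which vessels gave the endothelial RNA of these dissected samples was not tested. Robo2 did not pass in either mutant, at -0.19 and -0.39 (adjusted p = 0.617 and 0.36).

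Of the netrin receptors, Unc5c, which mediates repulsion by netrins, had values of 8.23, 7.11, 8.26 and 8.24 in WT, 6.98, 6.78 and 6.49 in p27-/- and 6.67, 6.78 and 7.55 in p27-/-;Sox2+/-. All p27-/- samples lay below all WT samples, and p27-/-;Sox2+/- replicate 3 lay above WT replicate 2. It fell by 1.21 on the log2 scale in p27-/- (SE 0.27, adjusted p = 0.0183 in limma), or 2.31-fold, the largest difference of the guidance genes in that comparison, and its difference in p27-/-;Sox2+/- was -0.96 (adjusted p = 0.0779). Within WT and within p27-/-;Sox2+/-, the sample that stood apart in Unc5c also stood apart in the posterior lobe markers, low in WT replicate 2 and high in p27-/-;Sox2+/- replicate 3. WT replicate 2 was also the highest of all samples in the anterior lobe markers. With the mean of the posterior lobe markers in the limma model, the difference in p27-/- was -0.75 (adjusted p = 0.0408) and that in p27-/-;Sox2+/- was -0.50 (adjusted p = 0.23). With the anterior lobe markers instead, the differences were -1.34 (adjusted p = 0.0111) and -1.16 (adjusted p = 0.049), and with the endothelial markers -0.85 (adjusted p = 0.252) and -0.68 (adjusted p = 0.356). Without WT replicate 2 the differences were -1.49 (adjusted p = 0.000988) and -1.24 (adjusted p = 0.00584), while the fall in p27-/- had an adjusted p of 0.0562, 0.0906 and 0.0527 without p27-/- replicates 2 and 3 and WT replicate 4, and the difference in p27-/-;Sox2+/- had 0.0465 without its replicate 3. Dcc differed from WT by -0.05 in p27-/- and -0.12 in p27-/-;Sox2+/- (adjusted p = 0.871 and 0.73), and the netrin genes Ntn1 and Ntn4 by 0.00 and -0.47 in p27-/- (adjusted p = 0.996 and 0.238).

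**Figure D3:**
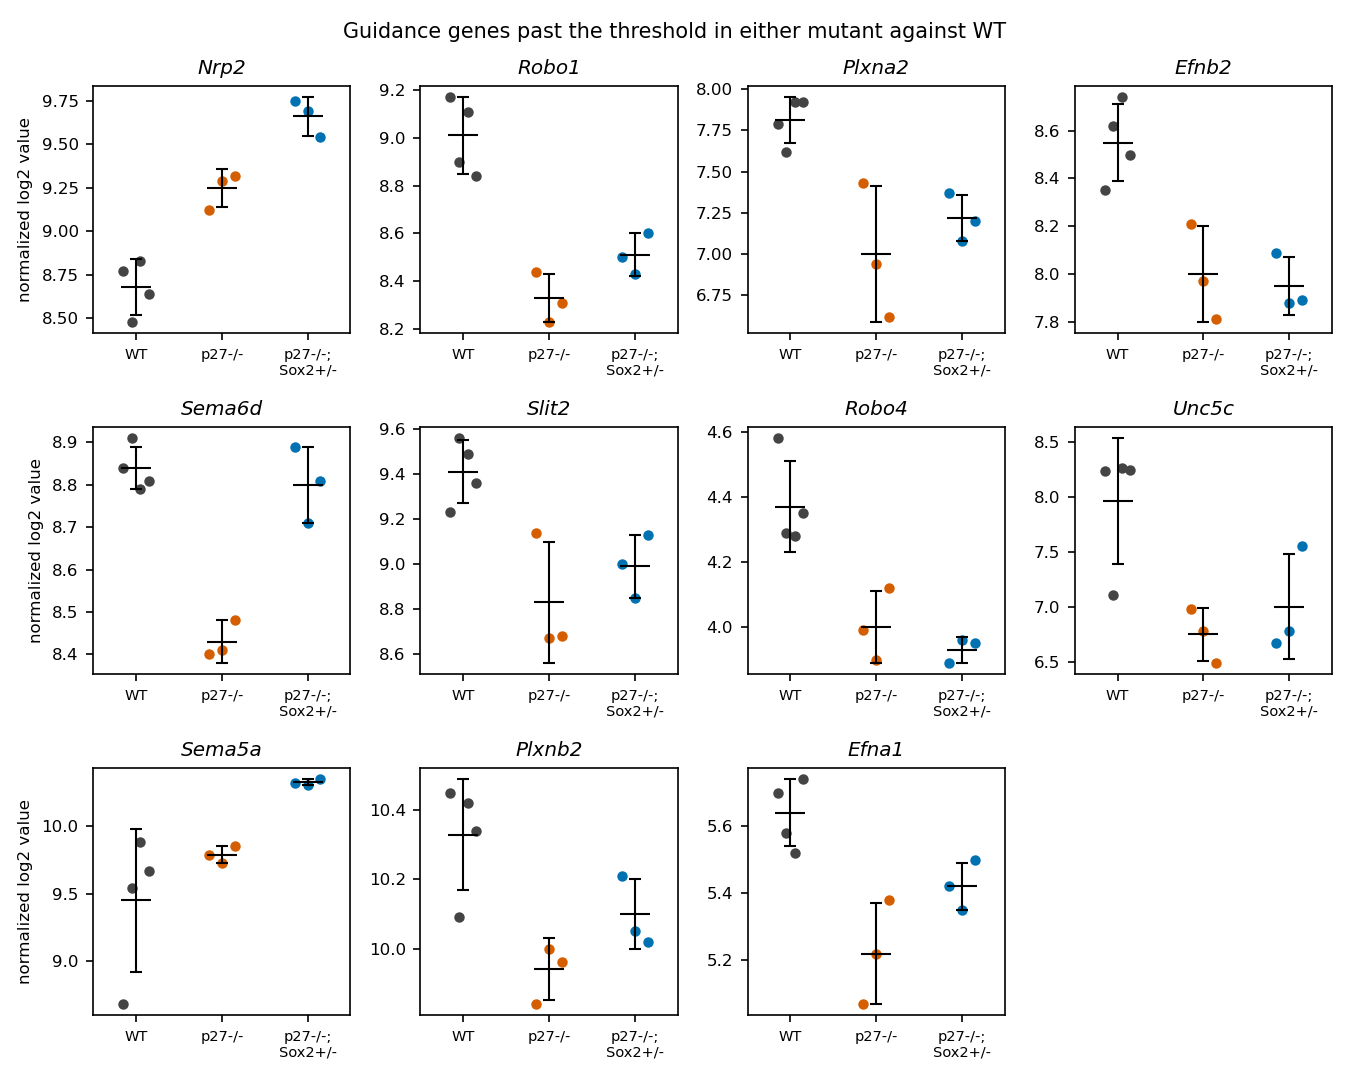
Normalized log2 values of the 11 guidance genes that passed in either mutant against WT, with 1 point per sample, the mean as a horizontal line and the SD as a bar, and a separate vertical axis for each gene that does not start at 0. Nrp2 steps up over the 3 genotypes, the p27-/- points of Sema6d lie below all others and the p27-/-;Sox2+/- points of Sema5a above all others. None of these genes, Nrp2 included, passed the threshold between the mutants. The single low WT point of Unc5c is replicate 2.

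The samples of p27-/- and WT did not overlap in 16 of 59 guidance genes (27.1%), against 20.6% of all tested genes. Beside the 10 that passed, these were Sema3f, Epha3, Plxna4, Sema3b, Efna4 and Efna2. Sema3f, a secreted ligand of Nrp2, ranged from 7.46 to 7.97 in WT, from 7.06 to 7.41 in p27-/- and from 7.2 to 7.23 in p27-/-;Sox2+/-. Both mutants lay below WT, at differences of -0.43 (adjusted p = 0.0889 in limma) and -0.50 (adjusted p = 0.0852). Plxna4, a plexin, and Epha3 were each lower in all p27-/- samples than in all samples of the other genotypes, at differences from WT of -0.26 and -0.30 in p27-/- and -0.01 in p27-/-;Sox2+/- for each. Sema3b and Efna4 differed by -0.20 and -0.16 in p27-/-, and Efna2 by 0.24.

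Other ligands, co-receptors and signalling genes of these pathways were read from a list of 77 tested genes. In p27-/- against WT, 8 passed in limma (10.4%, against 7.78% of all tested genes): Rgmb and Dpysl2 rose, and Plxdc2, Nrcam, Dock1, Ntng2, Flrt1 and Sdc1 fell. Rgmb, a co-receptor of bone morphogenetic proteins that binds the netrin receptor neogenin, had values of 8.18, 8.06, 8.02 and 8.18 in WT, 8.78, 8.82 and 8.72 in p27-/- and 8.62, 8.71 and 8.59 in p27-/-;Sox2+/-. Both mutants were above WT in all samples, by 0.66 (adjusted p = 0.000865) and 0.53 (adjusted p = 0.00729). Nrcam, a cell adhesion molecule that joins neuropilins in receptor complexes, fell by 0.64 in p27-/- (adjusted p = 0.00827), and its difference in the compound mutant was -0.48 (adjusted p = 0.0527). Dock1, an exchange factor for Rac that acts below DCC, fell by 0.73 on the log2 scale in p27-/- (adjusted p = 0.0123) and by 0.63 in the compound mutant (adjusted p = 0.0411). The syndecan gene Sdc1 fell by 0.47 (adjusted p = 0.0385) and by 0.56 (adjusted p = 0.0327). Ntng2, a membrane-anchored netrin relative, fell by 0.46 in p27-/- (adjusted p = 0.0205), and Dpysl2, a microtubule-binding mediator of semaphorin signals, rose by 0.31 (adjusted p = 0.0394). Of the 10 fits that each left out 1 sample, Rgmb, Plxdc2 and Nrcam passed in all, Dock1 in 8, Ntng2 in 7, Flrt1 in 5 and Sdc1 and Dpysl2 in 3 each.

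In p27-/-;Sox2+/- against WT, 5 of the 77 passed (6.49%, against 2.71% of all tested genes): Rgmb and Flrt3 rose, and Dock1, Sdc1 and Vav3 fell. Between the mutants 2 passed, Flrt3 and Plxdc2, both higher in p27-/-;Sox2+/- (2.60%, against 0.145% of all tested genes). Flrt3, an adhesion molecule that binds UNC5 receptors and Robo1, had values of 8.68, 8.61, 8.72 and 8.57 in WT, 8.86, 8.50 and 8.49 in p27-/- and 9.14, 9.34 and 9.40 in p27-/-;Sox2+/-. The p27-/-;Sox2+/- samples lay above all others, and p27-/- overlapped WT. Flrt3 was higher in p27-/-;Sox2+/- than in p27-/- by 0.68 (SE 0.12, adjusted p = 0.0435) and than in WT by 0.65 (adjusted p = 0.00729). Plxdc2, a transmembrane protein with a plexin domain, had values of 9.38, 9.09, 9.67 and 9.61 in WT, 8.85, 8.65 and 8.62 in p27-/- and 9.54, 9.35 and 9.51 in p27-/-;Sox2+/-. Here p27-/- lay below both other genotypes, by 0.76 against p27-/-;Sox2+/- (SE 0.14, adjusted p = 0.0491), and p27-/-;Sox2+/- lay among WT. Flrt1, a relative of Flrt3, fell by 0.61 in p27-/- (adjusted p = 0.03) and differed from WT by -0.06 in p27-/-;Sox2+/-. Against WT, Rgmb and Flrt3 in p27-/-;Sox2+/- passed in 9 of the 10 fits that left out 1 sample, Sdc1 in 5, Dock1 in 3 and Vav3 in 2. The differences of Flrt3 and Plxdc2 between the mutants passed in 4 and 3 of the 10 fits that left out 1 sample, and had the largest adjusted p, 0.37 and 0.38, without p27-/- replicate 3. Of the 12 other settings of the fit, Flrt3 passed in 7 and Plxdc2 in 5.

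**Figure D4:**
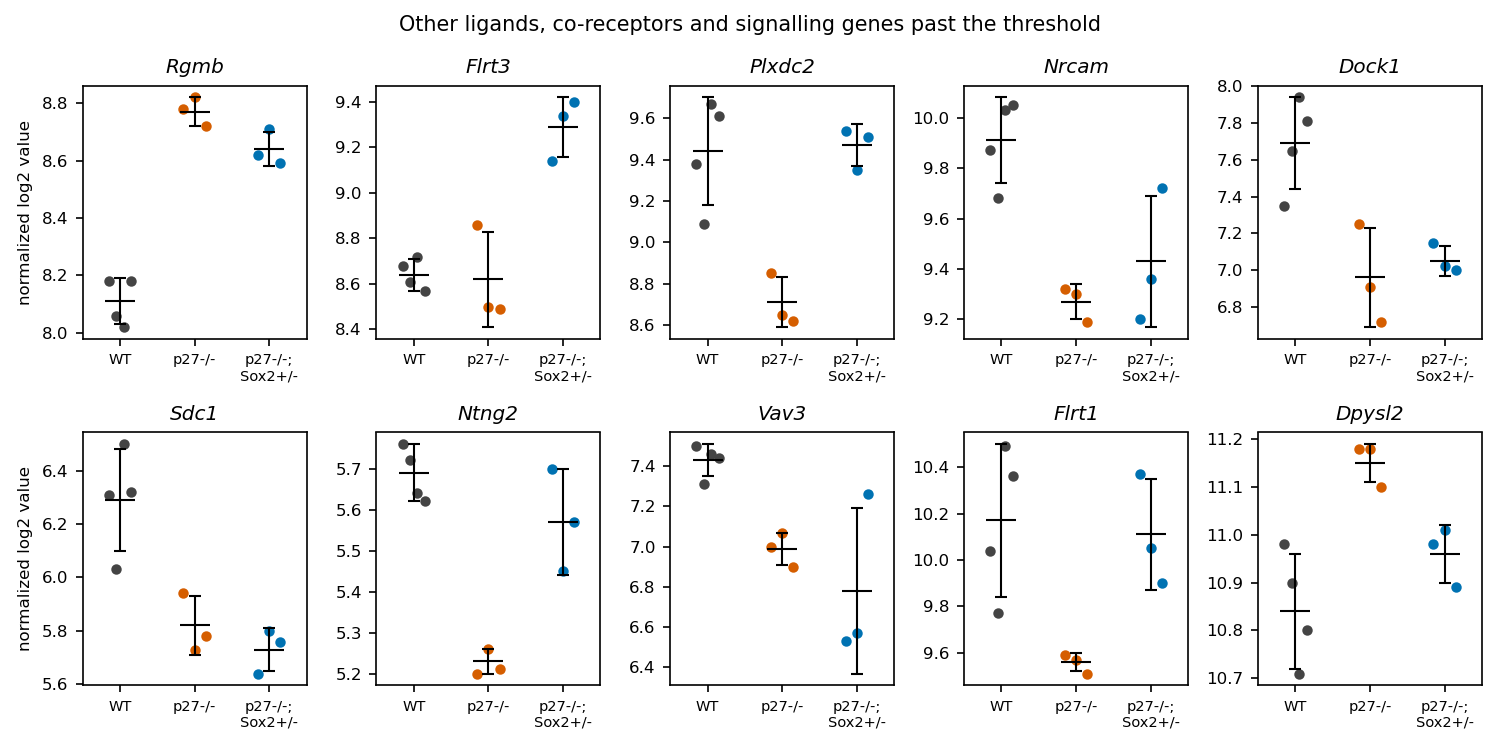
Normalized log2 values of 10 other pathway genes that passed in any comparison, with 1 point per sample, the mean as a horizontal line and the SD as a bar, and a separate vertical axis for each gene that does not start at 0. Rgmb is above WT in both mutants, the p27-/-;Sox2+/- points of Flrt3 lie above all others, and Plxdc2 and Ntng2 are low in p27-/-.

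Since the marker levels of endothelium and posterior lobe differed between samples, the differences were also read with each in the model. With the posterior lobe markers, 6 of 59 guidance genes (10.2%) passed in p27-/- against WT in limma, against 2.26% of all tested genes, and 3 (5.08%) in p27-/-;Sox2+/-, against 0.759%. With the endothelial markers, 2 (3.39%) passed in each, against 1.41% and 0.77% of all tested genes: Efnb2 and Unc5d (named after its values were seen) in p27-/-, and Efnb2 and Nrp2 in p27-/-;Sox2+/-. Efnb2 then differed by -0.77 in both mutants (adjusted p = 0.0355 and 0.0298). Nrp2 differed by 0.92 in p27-/-;Sox2+/- (adjusted p = 0.0115) and by 0.49 in p27-/- (adjusted p = 0.118), Robo1 by -0.65 in p27-/- (adjusted p = 0.0571) and Plxna2 by -0.90 (adjusted p = 0.0805). Robo4 and Efna1 moved toward 0, each to -0.23 in p27-/- (adjusted p = 0.383 and 0.457). Unc5c in p27-/- also moved toward 0, from -1.21 with no covariate to -0.85 (adjusted p = 0.252). Efnb2 and Plxna2 moved away from 0. Sema5a differed by 0.69 in p27-/-;Sox2+/- (adjusted p = 0.218). The posterior lobe list had 0 of 7 markers past the threshold in each comparison, with 3, 2 and 0 at an unadjusted p under 0.05 in p27-/-, in p27-/-;Sox2+/- and between the mutants. Both marker levels were lower in the mutants by the median marker, but the posterior lobe level also varied within a genotype. It was 5.31 in WT replicate 2, below all p27-/- samples, and 6.56 in p27-/-;Sox2+/- replicate 3, above all of them. The median log2 difference from WT over the endothelial markers was -0.38 in p27-/- and -0.25 in p27-/-;Sox2+/-. Over the posterior lobe markers it was -0.72 and -0.62. The parts of the genotype and of these 2 levels in the differences of the guidance genes cannot be told apart. The part of the stem cell and the fibroblast and mural marker levels in these differences was not tested.

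**Figure D5:**
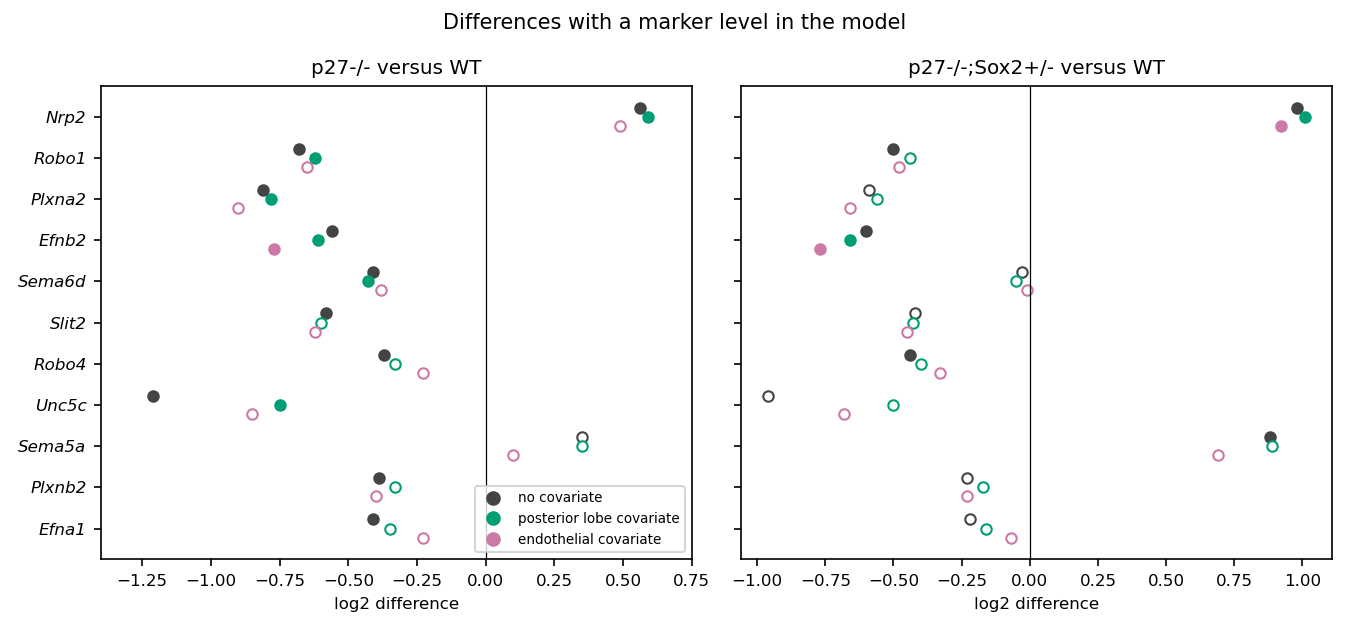
Log2 difference from WT in each mutant for the 11 guidance genes, with no covariate, with the posterior lobe marker level and with the endothelial marker level in the model; filled points passed an adjusted p of 0.05 and open points did not. No difference from WT that passed changes sign, and Efnb2 and, in p27-/-;Sox2+/-, Nrp2 stay filled in all 3 models.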

How the data were processed

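RNA of dissected IL was sequenced in bulk by the authors, who aligned reads with STAR 2.5.2a, counted them per gene with RSEM 1.3.30 without strand on the Ensembl transcriptome of GRCm38, normalized with DESeq2 1.18.1 and deposited log2 values for 29527 genes. The transformation is not given in the sources used here. The depth of each sample is unknown from the table, and values of genes with few reads may be pulled toward a common mean, which would make their differences smaller. Of the rows, 22709 have a symbol in the gene table.

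Groups follow the genotype label, and the methods call the samples biological replicates. All 10 entered 1 limma 3.58.1 fit (R 4.3.3, mean-variance trend), tested on simulated data, with Benjamini-Hochberg adjustment over 17268 genes and a threshold of 0.05. Log2 values per kb used the longest protein-coding transcript of an older annotation (GENCODE, all 68 genes matched). Promoter windows are RefSeq's, on GRCm38.p6. Tables were made in Python 3.11.15. The members, the other lists and the tests were chosen with earlier results of these data known.

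Named genes were those past the threshold, the highest member per family by mean level per kb, those whose p27-/- and WT samples do not overlap, and up to 10 pathway genes past the threshold. The alternatives were the filter, the samples fitted, the trend, array weights, quantile normalization, median centring, the replicate number as a block, Xist or marker levels as covariates, and leaving out each sample. No count test was possible on log2 values.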

Additional observations from a re-analysis of the deposited data

Results flagged for a closer look

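Unc5c in WT replicate 2, at 7.11, lay far below the other WT samples, at 8.23 to 8.26, a gap of 0.971 of the WT range. Of 34 genes looked at in this way in WT, 1 stood out, and chance gives about 1 in 20, or 1.7. Flrt3 differed between p27-/-;Sox2+/- and p27-/- by 0.68 (adjusted p = 0.0435, limma), and Plxdc2 by 0.76 (adjusted p = 0.0491), by a test of the difference between the mutants itself. Both missed the threshold with no filter on low values (adjusted p = 0.0935 and 0.109), with no mean-variance trend (0.069 and 0.0777), with the replicate number as a block (0.153 and 0.0886) and with the endothelial markers as a covariate (0.0715 and 0.0839). Flrt3 also missed it with the posterior lobe markers (0.051), and Plxdc2 with the anterior lobe markers (0.062), quantile normalization (0.0597) and median centring (0.0501).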

How the results depend on the processing

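With all samples and no covariate, 10 guidance genes passed in p27-/- and 5 in p27-/-;Sox2+/- against WT, and 0 between the mutants (limma; 8 at an unadjusted p under 0.05). In p27-/- against WT the count was 2 with the endothelial markers as a covariate, 6 with the posterior lobe markers and 4 with the replicate number as a block (Nrp2, Plxna2, Robo1 and Unc5c), and 3 to 11 with 1 sample left out, 3 without p27-/- replicate 2 or 3, 6 without WT replicate 4 and 11 without WT replicate 2. In p27-/-;Sox2+/- against WT it was 11 with array weights, 2 with the endothelial markers, 3 with the posterior lobe markers, 3 with no filter on low values and 3 with the replicate block, and 1 to 6 with 1 sample left out, 1 without p27-/-;Sox2+/- replicate 2, 2 without its replicate 1 and 3 without its replicate 3 or WT replicate 4. Between the mutants it was 2 with array weights (Nrp2 and Sema6d), 1 with only the 2 genotypes in the fit (Sema5a), and 0 to 1 with 1 sample left out, 1 without WT replicate 1 (Sema5a). The cause of these shifts was not tested. In the fit with array weights, p27-/-;Sox2+/- replicate 2 had a weight of 3.46, against 0.88 and 0.77 for replicates 1 and 3 of that genotype. The weights ran from 0.45 to 1.09 in WT and from 0.94 to 1.51 in p27-/-. Same-numbered samples of different genotypes had correlations of deviations between -0.238 and 0.182, against -0.191 to 0.265 for other numbers. These gave no sign that the numbers pair the samples, but so few samples a group cannot exclude it. WT replicate 4 shares its number with no other sample, so it adds nothing to the differences in the fit with the replicate block. With no filter, or with only the 2 genotypes in the fit, Plxnb2, Robo4 and Efna1 in p27-/- and Robo4 and Sema5a in p27-/-;Sox2+/- had adjusted p-values from 0.0506 to 0.0785. With quantile normalization Robo4 and Efna1 in p27-/- and Robo4 in p27-/-;Sox2+/- had 0.0698, 0.0763 and 0.0568, and with Xist as a covariate Efna1 had 0.056 in p27-/-. No difference that passed in any of these settings had the opposite sign to that reported. Over all tested genes the counts were 1343, 468 and 25, and ranged with the setting from 243 (endothelial markers) to 1764 (array weights), from 80 (without p27-/-;Sox2+/- replicate 2) to 1240 (array weights) and from 0 (without p27-/- replicate 2 or 3 or p27-/-;Sox2+/- replicate 1 or 2) to 283 (array weights). The reads behind each value are unknown from the table, so that no precision from depth can be given.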
